A study of Mus musculus with 6 samples.

Results

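Genes of mitosis and of the spindle checkpoint were examined in a mouse B cell lymphoma line, Wehi-231, of (BALB/c x NZB)F1 origin, with 1 of 2 short hairpin RNAs in the cells. The list named 41 genes. A gene was kept where the deposited log2 value table held a probe of it above an estimated background level of 6.61 in at least 3 of the 6 arrays, which left 29 genes of the 7203 tested in all. The level was set so that 1% of background values exceed it. There were 3 arrays of cells labelled shCT, the comparison group, and 3 of cells labelled shTFII-I, a hairpin named for the transcription factor TFII-I. Both groups are the same line, grown in serum and hybridised as biotin-labelled cRNA from total RNA to Illumina bead arrays. The labels give no drug treatment, no time after hairpin delivery and no hairpin sequence. They do not say whether a group is 1 clone or a pool, or whether replicates were separate cultures, and if they were not, the p-values speak of technical spread alone. The series is about CTCF, a chromatin protein, and how TFII-I targets it to promoters. The arrays compare transcript levels under the 2 hairpins.

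Entry into mitosis is driven by CDK1 with its cyclins A2, B1 and B2, released from inhibition by CDC25 phosphatases and assisted by the Polo and Aurora kinases. The spindle checkpoint (MAD and BUB proteins and the kinase TTK) holds back CDC20, the activator of the anaphase-promoting complex, until kinetochores are attached, and separase then splits sister chromatids. Many of these genes are transcribed together late in the cell cycle from promoters that hold a cell cycle genes homology region (CHR) and CCAAT boxes.

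The promoters of the 4 genes with the lowest p between the hairpin groups are shown here, searched for these elements. They are windows of 300 bases, 250 before and 50 after the start of the gene, from RefSeq on build GRCm38.p6, printed on the strand of the gene. Capitals mark TTTGAA or TTCGAA (the CHR letters searched) and CCAAT, each on either strand, so that ATTGG and TTCAAA are also capitals.
Aurka promoter, chr2:172370521-172370820, minus strand: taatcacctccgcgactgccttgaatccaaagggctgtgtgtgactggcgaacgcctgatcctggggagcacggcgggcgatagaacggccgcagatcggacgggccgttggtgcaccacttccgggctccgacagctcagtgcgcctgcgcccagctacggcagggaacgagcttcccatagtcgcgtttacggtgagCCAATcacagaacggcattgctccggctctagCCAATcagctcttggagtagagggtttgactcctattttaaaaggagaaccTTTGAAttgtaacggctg
Cdc20 promoter, chr4:118437294-118437593, minus strand: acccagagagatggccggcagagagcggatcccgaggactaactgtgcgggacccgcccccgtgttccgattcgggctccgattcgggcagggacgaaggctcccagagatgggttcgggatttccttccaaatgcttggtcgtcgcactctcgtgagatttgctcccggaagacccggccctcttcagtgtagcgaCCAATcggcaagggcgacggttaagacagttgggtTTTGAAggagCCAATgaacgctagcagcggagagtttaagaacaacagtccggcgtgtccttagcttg
Bub1b promoter, chr2:118597961-118598260, plus strand: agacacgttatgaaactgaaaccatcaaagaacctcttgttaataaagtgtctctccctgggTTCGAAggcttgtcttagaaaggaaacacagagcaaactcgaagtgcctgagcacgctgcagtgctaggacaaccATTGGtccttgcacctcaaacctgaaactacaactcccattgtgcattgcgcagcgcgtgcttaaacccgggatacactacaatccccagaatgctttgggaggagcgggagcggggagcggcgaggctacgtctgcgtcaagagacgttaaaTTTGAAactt
Chfr promoter, chr5:110135580-110135879, plus strand: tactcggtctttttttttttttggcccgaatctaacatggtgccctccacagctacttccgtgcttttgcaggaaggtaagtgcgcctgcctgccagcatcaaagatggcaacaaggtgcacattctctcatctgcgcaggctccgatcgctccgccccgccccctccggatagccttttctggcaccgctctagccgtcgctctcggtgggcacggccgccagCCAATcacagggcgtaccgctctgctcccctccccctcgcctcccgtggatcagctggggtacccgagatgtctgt
The window of Aurka has a CHR match at bases 33 to 38 after the start and CCAAT matches from -51 to -47 and from -19 to -15. Cdc20 has a CHR match from -18 to -13 between CCAAT matches at -53 to -49 and -8 to -4. Bub1b has CHR matches from -188 to -183 and at bases 41 to 46, with a reversed CCAAT from -113 to -109. The window of Chfr holds no CHR match and 1 CCAAT, from -26 to -22.

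Of the 41 genes, 34 had a promoter in the table, with 37 windows among them. CHR letters were in 29 of these 37 windows, or 78.4%, against 19.2% of all 32851 promoters of the same length. CCAAT was in 83.8% of the windows of these genes and in 37.4% of all promoters. The E-box CACGTG was in 5.41% of them and 7.15% of all. Both CHR and CCAAT letters were found for 24 genes. In 1 place a CHR match overlapped a CCAAT match. No CHR match was found in the windows of Nek2, Ccnb1, Mad2l1, Chfr, Pttg1, Cenpe, Nuf2 and Birc5, which says only that these letters are not in those windows. Among genes with array values, the median log2 difference, shTFII-I minus shCT, was -0.02 for the 20 with a CHR match and -0.04 for the 4 without. The 4 ranged from -0.13 for Birc5 to 0.83 for Chfr.

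Facts of the whole array set bear on how far these values can be read. The only named probe of Gtf2i, the gene of TFII-I, lay below background on all 6 arrays, and gives no check of the knockdown. Of 6 B cell markers with a probe, 5 were above background in at least 3 arrays, with means in shCT and shTFII-I arrays of 10.68 and 11.42 for Cd79b, 7.55 and 7.49 for Ebf1, 7.93 and 8.01 for Blnk, and 6.89 and 6.88 for Cd22. Pax5 passed in 3 arrays, near the background level at 6.58 and 6.64, and Ms4a1 did not pass. Of the T cell, fibroblast and erythroid markers with probes, 0 of 9 passed, and of 4 myeloid markers Csf1r alone did, in 3 arrays and as near the background level as Pax5, at 6.59 and 6.61. Because the deposited columns share 1 distribution, 28.1% of probes lay above background on each array. Deposited values keep their background signal, which makes differences of dim genes too small. Fewer cells in mitosis and less RNA per cell cannot be told apart in such bulk samples.

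The mitotic genes were split about evenly between those higher and those lower in shTFII-I cells. The few with low p were higher on their tested probes, except Cdc20, and another probe of Cdc20 and of Bub1b had the other sign. By mean, 14 of the 29, or 48.3%, were higher in shTFII-I cells and 15 lower, where 50.1% of all genes were higher. Their median log2 difference was -0.0025, against 0.0004 over all genes tested. With limma and Benjamini-Hochberg adjustment over all 7203 genes, 0 of the 29 passed 0.05, as did 0% of all genes, and the lowest adjusted p of these genes in limma was 0.257. At an unadjusted limma p under 0.05 there were 4 of 29, or 13.8%, against 6.65% of all genes. These were Chfr, Aurka and Bub1b, higher (3 of 29, against 3.1% of all genes), and Cdc20, lower (1 of 29, against 3.55%). The count was 2 without shCT replicate 2 (506 of all 7203 genes) and without shCT replicate 3 (379 of all genes). It was also 2 without shTFII-I replicate 1 (536 of all genes) and without shTFII-I replicate 2 (456 of all genes). Without shCT replicate 1 it was 3 (351 of all genes), and without shTFII-I replicate 3 it was 4 (539 of all genes).

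**Figure D1:**
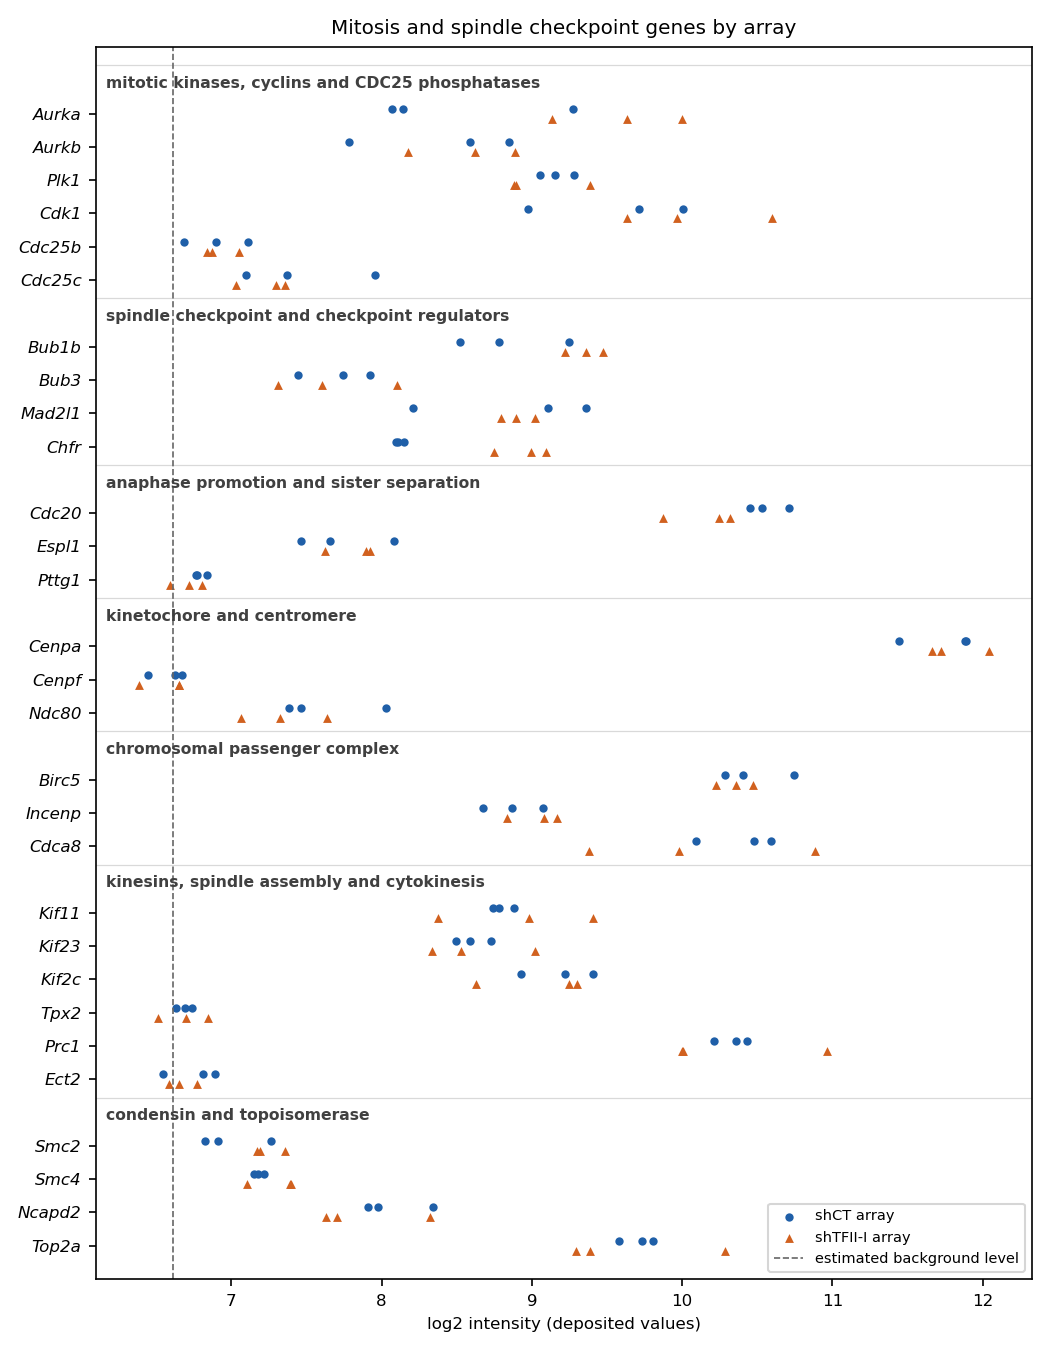
Log2 intensity (deposited values, x axis) of the tested probe of each of 29 genes, grouped by role, with 1 point for each shCT array (circles) and each shTFII-I array (triangles). The dashed line is the estimated background level of 6.61. Chfr and Cdc20 are the genes whose 2 groups do not overlap.

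The groups did not overlap in 2 of the 29 genes, Chfr and Cdc20, or 6.9%, against 11.9% of all genes tested. The 1 gene apart and higher, Chfr, stands against 5.48% of all genes, and the 1 apart and lower, Cdc20, against 6.39%. A log2 difference of at least 0.5 in size was found in 4 of the 29, Aurka, Chfr, Cdk1 and Bub1b, and in 6.08% of all genes. Leaving out 1 array makes separation easier, and the count then ran from 3 without shCT replicate 3 to 8 without shTFII-I replicate 1. It was 4 without shCT replicate 2 or shTFII-I replicate 2, 5 without shCT replicate 1 and 6 without shTFII-I replicate 3. The share of all genes is not given with 1 array left out. These counts cannot be read against the 11.9%, which holds for all 6 arrays. The median SD within a group was 0.26 for these genes and 0.22 for all genes. For 25 of the 29 the 95% interval of the difference stayed within 1 log2 unit of 0 on both sides. These intervals hold for the tested probe on the deposited scale. They are too narrow for dim genes, among them Pttg1, Tpx2, Cenpf and Ect2, which lay near background. With a normexp background correction Smc2 differed by 0.447, against 0.238 on the deposited scale, and Ndc80 by -0.436, against -0.285. Other probes of Birc5, Bub1b and Cdc20 had intervals that reached beyond 1.

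**Figure D2:**
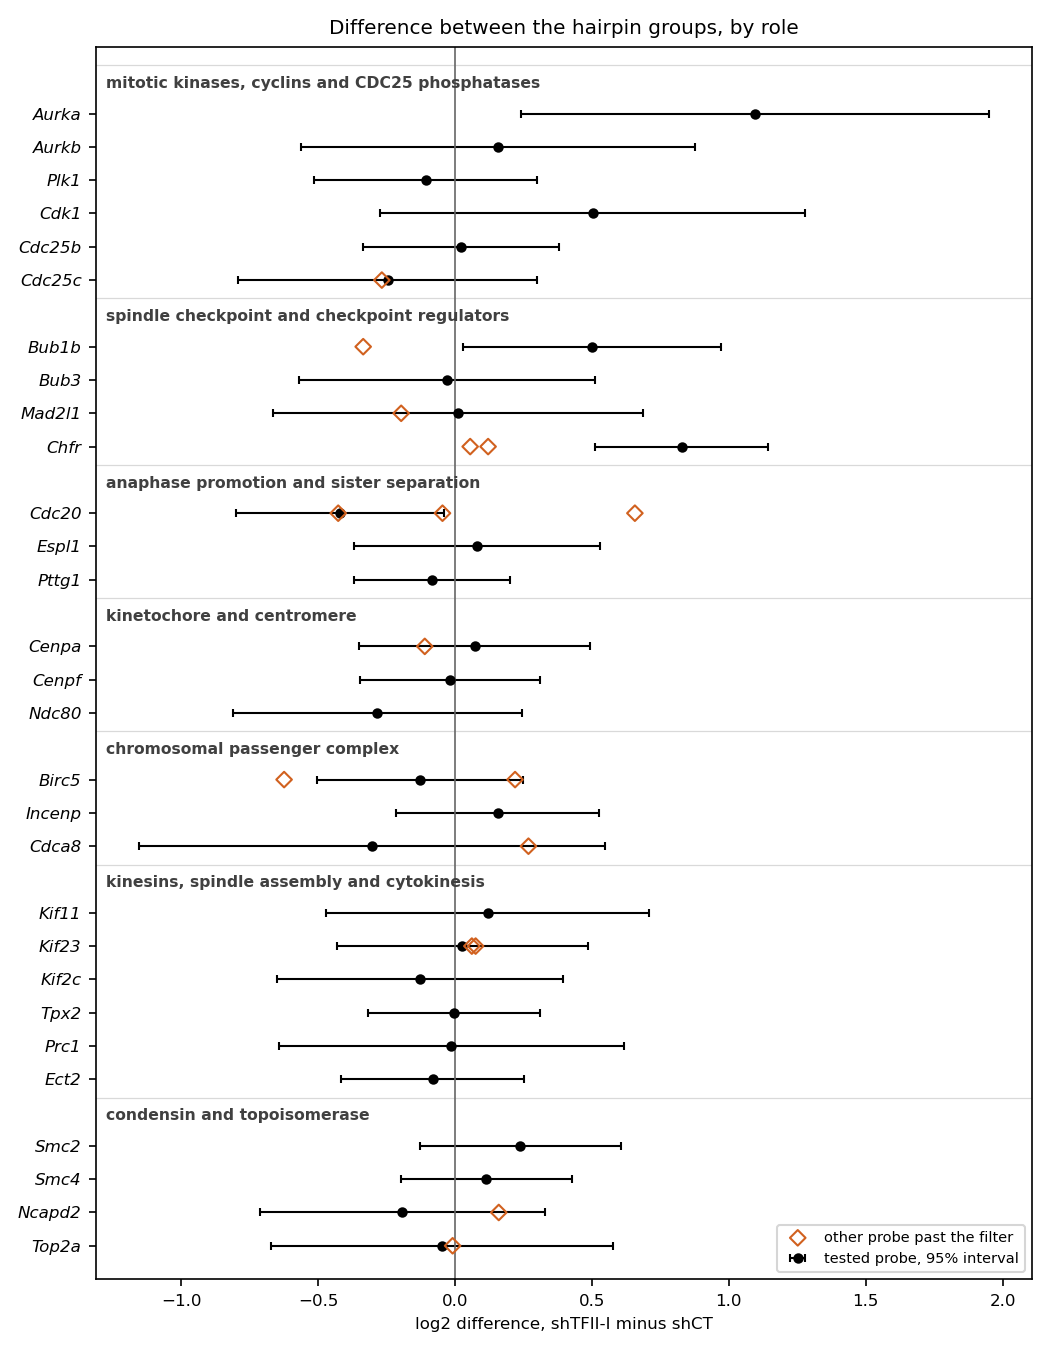
Log2 difference, shTFII-I minus shCT (x axis), for 29 genes grouped by role. Filled circles with bars are the tested probe and its 95% interval from limma, and open diamonds are other probes of the gene past the background filter. The intervals of Aurka, Bub1b, Chfr and Cdc20 do not reach 0, and other probes of Bub1b and Cdc20 lie on the other side of 0.

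Among kinases, cyclins and CDC25 phosphatases, 6 of 10 genes were measured, 4 higher and 2 lower. Aurka (probe ILMN_2617228) encodes Aurora A, the kinase of centrosomes and spindle poles. It was at log2 intensities of 8.14, 9.27 and 8.07 in shCT and at 9.64, 10.00 and 9.13 in shTFII-I arrays. The second shCT array lay above the third shTFII-I array, so the groups overlapped. The log2 difference was 1.10 ± 0.36 (SE), or 2.14-fold, with a 95% interval from 0.24 to 1.95, the largest in size among the 29 genes. It did not pass over all genes (limma adjusted p = 0.659), and with 1 array left out the log2 difference ran from 0.88 without shCT replicate 3 to 1.49 without shCT replicate 2. The unadjusted limma p, 0.0191 with all arrays, was 0.0655 without shCT replicate 3, 0.0641 without shTFII-I replicate 2, 0.0645 without shCT replicate 1 and 0.0631 with array weights. It was 0.0493 without shTFII-I replicate 1, 0.0116 without shTFII-I replicate 3 and 0.0014 without shCT replicate 2. With normexp it was 0.0031, with limma's trend and robust prior 0.0026 and with a replicate block 0.0020. Aurka has 1 named probe, so no second probe could be set beside it.

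Aurkb encodes Aurora B, the kinase of the chromosomal passenger complex. It was at 8.59, 8.85 and 7.78 in shCT and at 8.89, 8.18 and 8.62 in shTFII-I arrays. The groups overlapped widely, and the log2 difference of 0.16 had an interval from -0.56 to 0.88. Plk1, the Polo kinase of mitotic entry and spindle assembly, was at 9.05, 9.28 and 9.15 in shCT and at 8.88, 9.39 and 8.90 in shTFII-I arrays. Its shTFII-I arrays held both the highest and the lowest value, and the log2 difference was -0.11 ± 0.17 (SE).

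Cdk1 encodes the catalytic kinase of mitotic entry. It was at 8.97, 9.71 and 10.01 in shCT and at 10.60, 9.63 and 9.97 in shTFII-I arrays. The first shCT array was the lowest and the first shTFII-I array the highest, with the other 4 close together. The log2 difference was 0.50 ± 0.33 (SE; limma adjusted p = 0.845), and it was 0.21 without shCT replicate 1. Its other 2 probes did not pass the background filter. Cdc25b, a phosphatase that activates CDK1, averaged 6.90 ± 0.21 in shCT and 6.92 ± 0.11 in shTFII-I arrays (SD, n = 3 each). The related Cdc25c averaged 7.48 ± 0.44 and 7.23 ± 0.17 in the same order (SD, n = 3 each), and its 2 probes past the filter differed by -0.25 and -0.27. The difference of the tested Cdc25c probe was -0.0055 without shCT replicate 3 and -0.44 without shCT replicate 1.

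The cyclins of mitosis were not measurable here. Ccna2 and Ccnb2 have 1 named probe each, above background on no array, and Ccnb1 has no probe with its name in the annotation used. The centrosomal kinase Nek2 had 3 probes, of which at most 1 array was above background.

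Of 6 checkpoint genes 4 were measured, 3 higher and 1 lower. Chfr (probe ILMN_2985111) encodes a ubiquitin ligase that delays entry into mitosis under spindle stress. It was at 8.15, 8.11 and 8.10 in shCT and at 8.75, 9.09 and 8.99 in shTFII-I arrays. All shTFII-I arrays lay above all shCT arrays, and the shCT arrays lay within 0.05 of each other. The log2 difference was 0.83 ± 0.13 (SE), or 1.77-fold, with an interval from 0.51 to 1.14, and the unadjusted limma p was 0.000428. It did not pass over all genes (limma adjusted p = 0.257). With 1 array left out the log2 difference ran from 0.75 to 0.93.

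The other probes of Chfr gave much smaller differences. A second probe was at 6.99, 6.67 and 6.67 in shCT and at 6.74, 6.83 and 6.92 in shTFII-I arrays, a log2 difference of 0.06. Another dim probe was at 6.59, 6.78 and 6.59 in shCT and at 6.79, 6.76 and 6.77 in shTFII-I arrays, a log2 difference of 0.12. Both lay close to the background level, and in both the groups overlapped. The probe at 0.12 was above background in 1 shCT and 3 shTFII-I arrays, so it passed the filter mainly through the higher group. Why these differences were smaller than that of the bright probe was not tested. The last probe was above background on no array. With the mean of the 3 probes past the filter the log2 difference was 0.34 (limma adjusted p = 0.606).

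Bub1b (probe ILMN_2774007) encodes BUBR1, a part of the checkpoint complex that inhibits CDC20. It was at 8.52, 8.78 and 9.25 in shCT and at 9.22, 9.47 and 9.36 in shTFII-I arrays. Only the third shCT array reached the range of the shTFII-I arrays. The log2 difference was 0.50 ± 0.20 (SE), with an interval from 0.03 to 0.97, and did not pass (limma adjusted p = 0.732). The second Bub1b probe went the other way, at 7.90, 8.23 and 8.51 in shCT and at 8.37, 8.31 and 6.96 in shTFII-I arrays, a log2 difference of -0.34. On that probe the third shTFII-I array alone stood low.

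Mad2l1 encodes MAD2, which binds CDC20 when kinetochores are unattached. It was at 8.21, 9.36 and 9.11 in shCT and at 8.89, 8.80 and 9.02 in shTFII-I arrays. The shTFII-I arrays lay inside the range of the shCT arrays, and the log2 difference was 0.01 with an interval from -0.66 to 0.69. Bub3, which carries BUB1 and BUBR1 to kinetochores, averaged 7.70 ± 0.24 and 7.67 ± 0.40 in the same order (SD, n = 3 each). The checkpoint kinases Bub1 (2 probes) and Ttk (3 probes) did not pass the filter, with at most 2 arrays above background on any probe.

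For anaphase, 3 of 4 genes were measured. Cdc20 (probe ILMN_2867899) encodes the activator of the anaphase-promoting complex that the checkpoint restrains. It was at 10.45, 10.53 and 10.71 in shCT and at 9.87, 10.32 and 10.25 in shTFII-I arrays. All shCT arrays lay above all shTFII-I arrays. The log2 difference was -0.42 ± 0.16 (SE), with an interval from -0.80 to -0.04, and did not pass (limma adjusted p = 0.722).

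Cdc20 had 4 probes past the filter, and they did not give 1 direction. One of them was at 8.22, 7.94 and 8.17 in shCT and at 7.64, 7.63 and 7.78 in shTFII-I arrays, again without overlap and with a log2 difference of -0.43. Another was at 8.97, 9.34 and 8.74 in shCT and at 9.25, 9.70 and 10.07 in shTFII-I arrays, a log2 difference of 0.66 with overlapping groups and a 95% interval from 0.08 to 1.23. With this probe standing for Cdc20 the unadjusted limma p was 0.0325, against 0.035 for the tested probe, so that Cdc20 came under 0.05 in opposite directions on these probes. The last was at 10.47, 10.08 and 9.90 in shCT and at 10.05, 10.19 and 10.08 in shTFII-I arrays, a log2 difference of -0.05. With the mean of the 4 probes the log2 difference of Cdc20 was -0.06.

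Espl1, the separase that cleaves cohesin, averaged 7.73 ± 0.32 in shCT and 7.82 ± 0.17 in shTFII-I arrays (SD, n = 3 each). Its inhibitor securin, encoded by Pttg1, was at 6.76, 6.77 and 6.84 in shCT and at 6.72, 6.80 and 6.59 in shTFII-I arrays, close to background throughout. The only Pttg1 probe gave a log2 difference of -0.08. Ube2c, the ubiquitin-conjugating enzyme of the anaphase-promoting complex, had 1 probe, above background on 1 array.

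**Figure D3:**
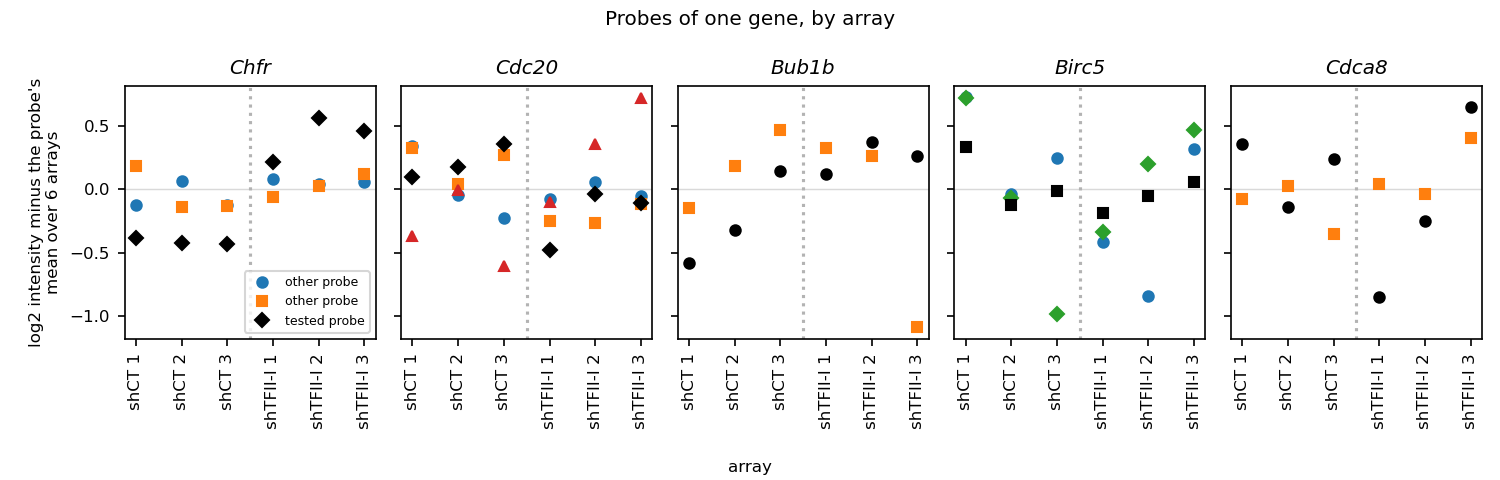
Log2 intensity minus the mean of the same probe over 6 arrays (y axis), by array (x axis), for every probe past the filter of Chfr, Cdc20, Bub1b, Birc5 and Cdca8. Black symbols are the tested probe and coloured symbols the other probes, each with its own shape. The tested probes of Chfr and Cdc20 separate the groups, and each of Cdc20, Bub1b, Birc5 and Cdca8 has a probe whose difference has the other sign.

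In the chromosomal passenger complex all 3 listed genes were measured, 1 higher and 2 lower. Birc5 encodes survivin, the subunit that recruits the complex to centromeres. Its tested probe (ILMN_2632712) was at 10.74, 10.29 and 10.40 in shCT and at 10.22, 10.36 and 10.47 in shTFII-I arrays. The groups overlapped, with a log2 difference of -0.13 ± 0.16 (SE). A second Birc5 probe was at 11.06, 10.30 and 10.59 in shCT and at 9.92, 9.50 and 10.66 in shTFII-I arrays, a log2 difference of -0.62. The third was at 11.04, 10.25 and 9.33 in shCT and at 9.98, 10.52 and 10.79 in shTFII-I arrays, a log2 difference of 0.22. Both of these also overlapped, and on the third probe the shCT arrays spanned the whole range.

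Cdca8 encodes borealin, another subunit of the complex. It was at 10.59, 10.09 and 10.48 in shCT and at 9.38, 9.98 and 10.88 in shTFII-I arrays. The shTFII-I arrays held both the lowest and the highest value, and the log2 difference was -0.30 ± 0.36 (SE). Without shTFII-I replicate 3 it was -0.70 and without shTFII-I replicate 1 it was 0.05. The second Cdca8 probe was at 9.09, 9.19 and 8.82 in shCT and at 9.21, 9.13 and 9.57 in shTFII-I arrays, a log2 difference of 0.27. Incenp, the scaffold of the complex, averaged 8.87 ± 0.20 and 9.03 ± 0.17 in the same order (SD, n = 3 each), a log2 difference of 0.16 with an interval from -0.22 to 0.53.

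Of 5 kinetochore and centromere genes 3 were measured. Cenpa, the histone H3 variant that marks centromeres, was at 11.88, 11.89 and 11.44 in shCT and at 11.66, 11.72 and 12.04 in shTFII-I arrays. The groups overlapped, and the log2 difference was 0.07 with an interval from -0.35 to 0.49. A second Cenpa probe, near background, differed by -0.11. Ndc80, the microtubule-binding subunit of the outer kinetochore, was at 7.47, 7.38 and 8.03 in shCT and at 7.64, 7.07 and 7.32 in shTFII-I arrays. Its log2 difference was -0.28 ± 0.22 (SE), and without shCT replicate 3, the highest array, it was -0.08. Cenpf, a large protein of the outer kinetochore, was above background in 2 arrays of each group, averaging 6.58 ± 0.12 and 6.56 ± 0.15 (SD, n = 3 each). The kinesin Cenpe and the NDC80 partner Nuf2 did not pass the filter.

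Among kinesins and genes of spindle assembly and cytokinesis, 6 of 8 were measured, with log2 differences from -0.13 to 0.12. Prc1, which bundles microtubules of the central spindle, was at 10.36, 10.43 and 10.21 in shCT and at 10.00, 10.00 and 10.96 in shTFII-I arrays. The third shTFII-I array stood above all shCT arrays and the other two below them. Kif11, the kinesin that separates spindle poles, averaged 8.80 ± 0.07 in shCT and 8.92 ± 0.52 in shTFII-I arrays (SD, n = 3 each). Kif23, a kinesin of the central spindle, averaged 8.60 ± 0.12 and 8.63 ± 0.35 in the same order (SD, n = 3 each), and its 3 probes past the filter differed by 0.03, 0.06 and 0.08. Kif2c, a kinesin that shortens microtubules, differed by -0.13 with an interval from -0.65 to 0.39. Tpx2, the activator of Aurora A, and Ect2, the exchange factor of cytokinesis, lay near background and differed by -0.0025 and -0.08. The kinesin Kif20a and Racgap1, the partner of Ect2 and Kif23, have 1 probe each, above background on no array.

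Of 5 genes for chromosome condensation 4 were measured, 2 higher and 2 lower. Top2a, the topoisomerase that untangles sister chromatids, was at 9.58, 9.80 and 9.73 in shCT and at 10.29, 9.39 and 9.30 in shTFII-I arrays. The shTFII-I arrays lay on both sides of the shCT arrays. The log2 difference was -0.05 ± 0.27 (SE), and its second probe past the filter gave -0.01. Smc2, a core subunit of condensin, was at 7.27, 6.83 and 6.91 in shCT and at 7.19, 7.17 and 7.36 in shTFII-I arrays. The first shCT array lay inside the range of the shTFII-I arrays, and the log2 difference was 0.24 ± 0.16 (SE; limma adjusted p = 0.843). Its partner Smc4 averaged 7.18 ± 0.03 and 7.30 ± 0.17 in the same order (SD, n = 3 each). Ncapd2, a regulatory condensin subunit, averaged 8.08 ± 0.23 and 7.89 ± 0.38 in the same order (SD, n = 3 each), a log2 difference of -0.19, and a dimmer probe differed by 0.16. Ncapg, another regulatory subunit, did not pass the filter with any of 3 probes.

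In all, 11 genes with named probes had none past the filter: Nek2, Ccna2, Ccnb2, Bub1, Ttk, Ube2c, Cenpe, Nuf2, Kif20a, Racgap1 and Ncapg. Of their 19 probes, 12 were above background on no array, and the highest value on any array was 6.77. These genes have no level here, which is not the same as a low level: for genes that were measured, 1 of 3 Cdk1 probes and 1 of 2 Kif11 probes passed the filter. Over the whole list 45 of 83 probes passed. Of the 29 measured genes, 25 were above background on all 6 arrays, and 0 passed with fewer than 2 arrays in either group.

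More than 1 probe past the filter was available for 11 genes. All probes past the filter had 1 sign for 4 of them, Cdc25c, Chfr, Kif23 and Top2a. Both signs occurred for the other 7, which are Bub1b, Mad2l1, Cdc20, Cenpa, Birc5, Cdca8 and Ncapd2. A dim probe of Chfr and one of Ncapd2 passed with only 1 shCT array above background, so the filter favoured their higher shTFII-I values. The Chfr probe below the filter differed by -0.05. The second Top2a probe past the filter differed by -0.0087, with an interval from -0.37 to 0.35. When the probe with the largest spread stood for its gene instead, the log2 differences were 0.66 for Cdc20, -0.34 for Bub1b and 0.22 for Birc5, each opposite to that of the brighter probe. Probes of a gene are not replicates, and which of them follows the transcript was not tested.

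Array by array, the medians of these genes ran from -0.05 to 0.12, and those of all genes from -0.0124 to 0.0124. The mean deviation of these genes ran from -0.11 for shCT replicate 1 to 0.055 for shTFII-I replicate 3. The median deviation of the 29 genes from their own means was -0.02, 0.02 and 0.06 for shCT replicates 1 to 3. For shTFII-I replicates 1 to 3 it was 0.0041, -0.05 and 0.12. The third shTFII-I array had 18 of 29 genes above their mean, as did the third shCT array, and the first shCT array had 11. The number of genes with their lowest value in an array ran from 3 to 6 of 29, and with their highest value from 3 to 7. Over all genes the share with the lowest value in an array ran from 8.86% to 20.2%. The share with the highest value ran from 8.12% to 21.5%.

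**Figure D4:**
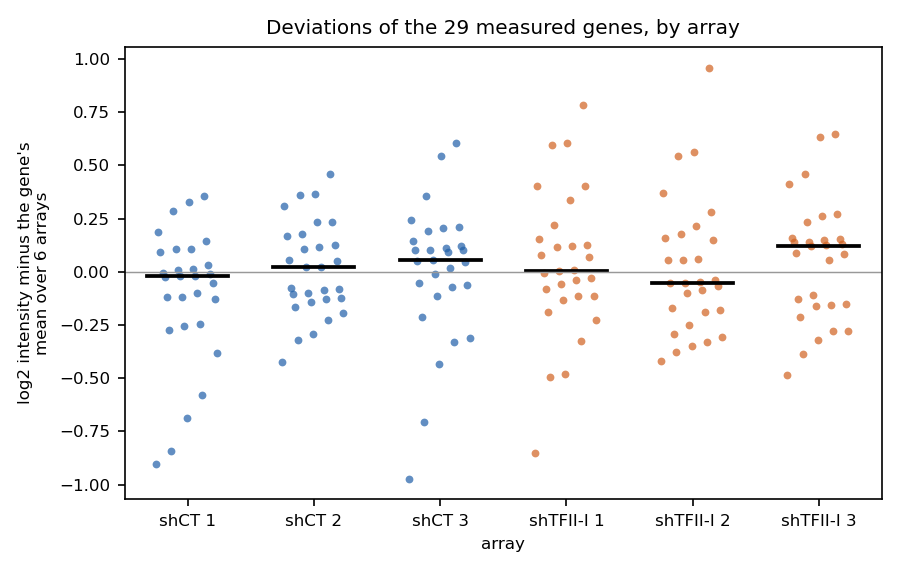
Log2 intensity minus the mean of the gene over 6 arrays (y axis) for 29 genes in each array (x axis). Points are genes, and black bars are medians, which run from -0.05 to 0.12.

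The wider machinery of mitosis was taken from a second list of 106 genes, of which 80 were measured. By mean 43 were higher and 37 lower in shTFII-I cells, with a median log2 difference of 0.03 and a range from -0.36 to 0.64. With limma 0 of 80 passed over all genes, and 1 had an unadjusted p under 0.05, or 1.25% against 6.65% of all genes. This was Cdc25a, the CDC25 phosphatase that also acts at S phase entry. It was at 7.75, 8.50 and 7.57 in shCT and at 8.70, 8.59 and 8.45 in shTFII-I arrays. The second shCT array reached the range of the shTFII-I arrays, and the log2 difference was 0.64 ± 0.25 (SE; limma adjusted p = 0.722).

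Of all genes tested 50.1% were higher in the mean of shTFII-I arrays. By role, kinases and entry factors of the wider list were higher in 10 of 14, and spindle checkpoint genes in 6 of 9. Kinetochore genes were higher in 9 of 21, kinesins and spindle genes in 12 of 20, and condensin genes in 2 of 4. Subunits and regulators of the anaphase-promoting complex, on which Cdc20 acts, were higher in 4 of 12. Differences between these role groups were not tested. Groups did not overlap in 2 of the 80 genes, or 2.5%, against 11.9% of all genes. One was Kif18b, a kinesin of the spindle, at 8.93, 8.86 and 8.73 in shCT and at 9.02, 9.22 and 9.07 in shTFII-I arrays, a log2 difference of 0.26. The other was Nsl1, a kinetochore subunit above background in 1 shCT and 3 shTFII-I arrays, which differed by 0.22.

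**Figure D5:**
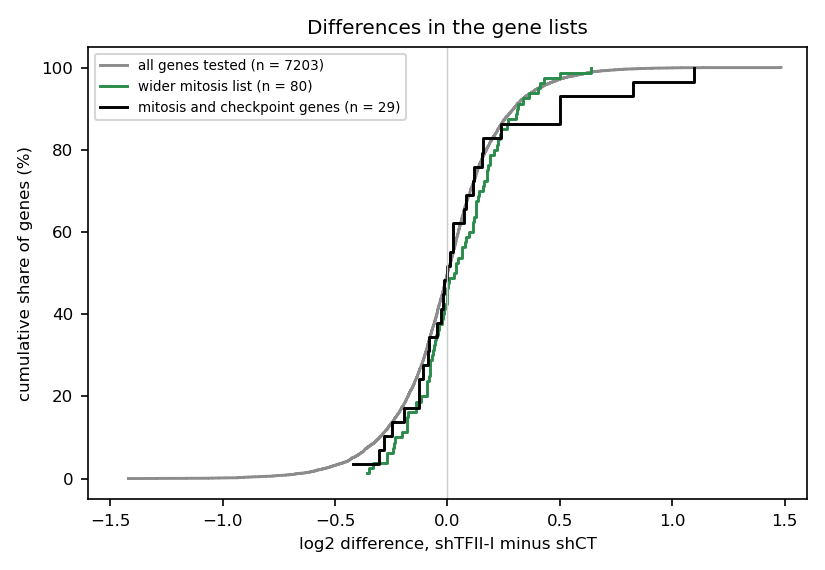
Cumulative share of genes in percent (y axis) by log2 difference, shTFII-I minus shCT (x axis), for 29 mitosis and checkpoint genes, 80 genes of the wider list and all 7203 genes tested. The curves cross 50% at medians of -0.0025, 0.03 and 0.0004. The rightmost steps of the black curve are Cdk1, Bub1b, Chfr and Aurka.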

How the data were processed

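RNA of 3 shCT and 3 shTFII-I samples was measured on Illumina bead arrays. The values used are the log2 intensities deposited by the authors for 45281 probes. The 6 columns hold 1 common distribution (sorted values agree to 0.0012), as quantile normalization leaves it. The submitters' processing notes name limma without a version; their background correction is not given in the sources used here. Bead signals came in another table, also with detection p-values. Its 12 value columns have headings that match no sample and were not used.

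The mode of all values, 6.45, served as the background's centre, and values below it were mirrored to set the level of 6.61, leaving 12109 probes. Probes were named through the platform annotation, which gives 1 symbol for 34885 probes, more for 18 and none for 10378; 34807 were updated by Entrez ID to symbols of GRCm38.p6. The probe with the highest mean over 6 arrays stood for its gene. limma 3.58.1 in R 4.3.3 (lmFit, eBayes with constant prior variance) was fitted to all 7203 genes. For the other probes of a gene it was fitted to all probes past the filter. For probes below the filter it was fitted to all deposited probes. The fit was tested on simulated data. The smallest p of an exact permutation test of 3 against 3 is 0.1, and limma alone was used. The number of arrays limits the precision.

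The genes and lists were chosen with earlier results of these data known. Values in every array are given for genes with unadjusted p under 0.05, groups that do not overlap, a log2 difference of at least 0.5, probes of opposite sign of at least 0.2, or the highest mean of their role group. Some others were added after their values were seen, as were Kif18b and Nsl1. Alternatives covered the filter, background level, normexp with an offset of 16, prior variance, array weights, the probe, the replicate block and each array left out.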

Additional observations from a re-analysis of the deposited data

How the results depend on the processing

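In every setting run, 0 of the measured mitosis genes passed an adjusted p of 0.05 in limma. Over all genes the count was 0, but 5 with normexp and 6 with limma's trend and robust prior. Unadjusted p was under 0.05 for 479 genes, for 1011 of the 19057 tested when no filter was set, and for 351 to 539 when 1 array was left out. The 4 mitosis genes at that level became 2 with normexp, 2 with the trend and robust prior (Aurka and Chfr in both) and 2 with the mean of the probes, and were 2 to 4 when 1 array was left out. The 2 genes with groups apart became 5 without a filter, as 40 genes were tested. They became 1 with the mean of the probes or the probe with the largest spread. With 1 array left out, which makes separation easier, the range was 3 to 8. Shares of all genes with groups apart are not given for these settings, so those counts cannot be read as an excess or a lack. The median difference ran from -0.039 to 0.064. With the replicate block 0 genes passed, and 508 had an unadjusted limma p under 0.05 (4 of them mitosis genes). Deviations of arrays with the same number correlated at -0.03, 0.003 and 0.09, and those of unlike number between -0.12 and 0.14. With so few arrays these correlations cannot say whether replicates were paired. Of 257 values of single genes under 9 settings, 248 kept their direction. The exceptions were, with array weights, Mad2l1 at -0.15, Espl1 at -0.029, Cenpa at -0.035 and Top2a at 0.079, with the mean of the probes Mad2l1 at -0.093 and Cenpa at -0.019, and with the probe of largest spread Bub1b at -0.335, Cdc20 at 0.657 and Birc5 at 0.219. The causes were not tested.

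With 1 array left out, 30 of 174 values changed sign. The ranges were Aurkb from -0.16 to 0.38, Cdc25b from -0.085 to 0.13, Bub3 from -0.24 to 0.15, Mad2l1 from -0.33 to 0.24, Espl1 from -0.056 to 0.26. They were Cenpa from -0.076 to 0.15, Cenpf from -0.088 to 0.07, Birc5 from -0.22 to 0.0054, Cdca8 from -0.704 to 0.047, Kif11 from -0.12 to 0.39. For the others they were Kif23 from -0.17 to 0.17, Kif2c from -0.26 to 0.087, Tpx2 from -0.082 to 0.082, Prc1 from -0.33 to 0.15 and Top2a from -0.36 to 0.13. With 3 arrays a group, 95% intervals extended by 0.29 to 0.86 on the log2 scale on each side. A difference smaller than its own half-width does not reach an unadjusted limma p of 0.05. The adjusted threshold asks for more. Chfr, with a difference of 0.83 and an interval from 0.51 to 1.14, did not pass it (limma adjusted p = 0.257).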
